A study of Mus musculus with 18 samples.

Results

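Pylorus was compared with stomach in mouse embryos at E16.5 on 6 of the series' 18 arrays, namely every array titled pylorus at that age (3) and every array titled stomach at that age (3). All embryos were C57Bl/6J, and the labels name no treatment and no transgene. From 95 embryos of E16.5, adjoining pieces of antrum, pylorus and duodenum were cut, and the pieces of each kind were divided at random over 3 pools. By this description, "stomach" is the antral piece beside the pylorus. The stomach arrays also had high signal of squamous and acid pump genes, given below. Whether the pieces held other parts of the stomach was not tested. Each array was hybridised with biotinylated cRNA from 6 ug of total RNA of a pool, and the sources used here do not give the number or sex of the embryos in a pool. The 3 duodenal arrays of E16.5 and the 9 arrays of E14.5, from 174 embryos of the same strain and the same 3 tissues, entered the fit and served for comparison. Differences are given as pylorus minus stomach in log2 intensity, so that 1 is a 2-fold difference of signal, with the standard error (SE) of the fit. A gene was called when its Benjamini-Hochberg adjusted p in limma was under 0.05 over all 18193 genes. The SE and the p-values rest on the spread between pools of embryos, estimated per gene over all 6 tissue and age groups together. This is not the spread of the 6 compared arrays alone. Each triple of values below lists replicates 1, 2 and 3 in that order.

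The pylorus is the ring between stomach and gut. A thick circular muscle, the sphincter, closes it, and the epithelium changes across it from mucus- and gastrin-producing antral glands to intestinal villi with absorptive cells, goblet cells and endocrine cells. Homeobox factors of the Cdx family set the intestinal identity of the endoderm, Sox2 is kept in the gastric endoderm, and Barx1 in the stomach mesenchyme. Nkx2-5 and Gata3 are transcription factors of the sphincter mesenchyme. In bulk tissue, fewer cells of a type and less RNA per cell cannot be told apart.

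Defining markers were checked against the tissue labels. Cdx2 had log2 intensities of 6.69, 7.63 and 6.54 in stomach and 10.86, 10.79 and 10.54 in pylorus, so that the groups did not overlap, and duodenum was at 10.82, 10.75 and 10.79. The pyloric mean of 10.73 thus lay beside the duodenal mean of 10.79. Sox2 was at 11.07, 11.34 and 11.26 in stomach and 9.91, 9.89 and 10.76 in pylorus, against 5.74, 5.48 and 6.01 in duodenum. Its difference of -1.04 ± 0.40 was not called (adjusted p = 0.0799), although the 3 pyloric arrays were the lower ones. The pyloric pieces thus carried the intestinal marker at the duodenal level together with a gastric marker far above its duodenal level. Cdh1, the epithelial cadherin, was at 12.73, 13.03 and 12.88 in stomach and 12.93, 13.12 and 13.37 in pylorus and was not called (adjusted p = 0.165). The sphincter markers Nkx2-5 and Gata3 were higher in every pyloric array, while those of Six2 and Sox9 overlapped with stomach, with differences of -0.07 ± 0.21 (adjusted p = 0.843) and -0.10 ± 0.21 (adjusted p = 0.791).

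Of the 18193 genes, 3894 were called (21.4%), 2263 higher in pylorus (12.4%) and 1631 lower (8.96%). The rises were the larger changes. At least 2-fold rises numbered 616 (3.39%) against 291 falls (1.60%), and at least 16-fold rises 49 against 8 falls. The median difference over all genes was 0.01. Higher genes made up 58.1% of the calls, but 43.1% after quantile normalization (1713 higher, 2265 lower), with 3325 of the calls kept and 0 turned in sign. Without pylorus replicate 2 the calls fell to 2482, and the calls lower in pylorus to 947; without stomach replicate 3 the latter came to 1029.

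**Figure D1:**
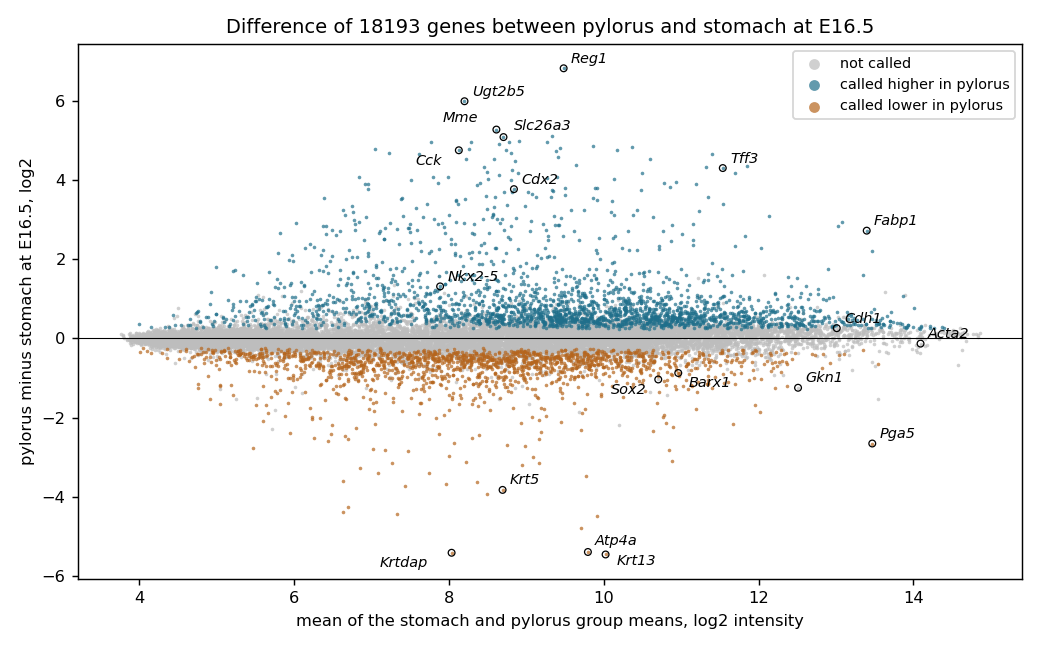
Difference between pylorus and stomach at E16.5 (vertical axis, log2) against the mean of both group means (horizontal axis, log2 intensity) for 18193 genes, with called genes in colour. The largest differences belong to Reg1 (6.83) and Ugt2b5 (6.0) above the line and to Krt13 (-5.46), Krtdap (-5.42) and Atp4a (-5.40) below it, while the epithelial gene Cdh1 and the smooth muscle gene Acta2 lie near 0.

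The 15 largest rises ranged from the secreted lectin Reg1 to the class I gene H2-Q2. Reg1, a secreted C-type lectin of pancreas and gut, was at 5.87, 6.94 and 5.39 in stomach and 12.95, 13.17 and 12.58 in pylorus, a 114-fold difference (6.83 ± 0.73, adjusted p = 1.38e-05). Ugt2b5, a glucuronosyltransferase, had 4.48, 6.14 and 4.99 in stomach and 11.21, 11.42 and 10.98 in pylorus, 64.0-fold higher (adjusted p = 7.73e-05). Mme, the peptidase neprilysin, differed by 5.28 and Slc26a3, the chloride-bicarbonate exchanger of the intestinal surface, by 5.09. Other enzymes among the 15 largest rises were the oxidase Hao2 (5.0), the retinol-esterifying Lrat (4.97), the phospholipase Abhd3 (4.97) and the meprin subunit Mep1b (4.92). Genes of the cell surface and skeleton were the intestinal cadherin Cdh17 (4.85), the actin-severing Scin (4.96), the lectin gene Clec2h (4.87), Clca4b (4.81) and the class I histocompatibility gene H2-Q2 (4.80). Smcp, known as a gene of sperm mitochondria (4.96), and ccdc198 (5.13) completed them. In these 15 genes no pyloric array came down to any stomach array, as the choice of the genes required. Over all genes, 20.5% had every pyloric array above every stomach array and 15.8% had every one below.

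The 15 largest falls included keratins, cornified envelope genes and both subunits of the acid pump. Krt13, a keratin of squamous epithelia, was at 12.32, 12.47 and 13.48 in stomach and 7.67, 7.51 and 6.70 in pylorus, 44.1-fold lower (-5.46 ± 0.29, adjusted p = 1.3e-08). Krtdap, a keratinocyte differentiation gene, had 9.29, 11.23 and 11.72 and 5.71, 5.12 and 5.15, a difference of -5.42. Atp4a, the catalytic subunit of the gastric proton pump, was at 12.07, 12.40 and 13.02 in stomach and 7.03, 7.14 and 7.12 in pylorus, 42.2-fold lower (adjusted p = 9.87e-10). The pyloric level of Atp4a stood near that of duodenum, 6.44, 6.38 and 6.52. The pump's other subunit Atp4b (-4.49), the intrinsic factor gene Cblif (-3.74) and the potassium channel subunit Kcne2 (-3.59) were among the 15 as well. The keratins Krt4 (-4.79) and Krt5 (-3.83) and the envelope genes Rptn (-4.39), Csta1 (-4.25), Sprr3 (-3.92), Crct1 (-3.68) and Cnfn (-3.62) were the other squamous genes. The cytochrome Cyp2f2 (-4.45) and Gsdmc2 of the gasdermin family (-3.48) completed the 15.

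The sequence before the start of 5 of these and the following genes is shown so that matches to letters known from factors of the gut can be read beside the differences. The 250 bases before the annotated start are given on the gene's own strand, from RefSeq on GRCm38.p6, for 4 genes that rose and whose windows hold at least 2 matches to the motifs searched (Slc26a3, Lct, Gip and Lgals2), and for Krt13, which fell. Capitals mark matches, on either strand, to letters known for 5 groups of factors. For Cdx these were TTTATG and also TTTACG. For HNF1 the letters GTTAAT were searched, and for the GATA factors AGATAA. For HNF4 the letters were CAAAGTC, and for SOX factors ACAAAG, and matches of the last pair can overlap. The windows are chr12:31437969-31438218 on the plus strand, chr1:128328319-128328568 on the minus strand, chr11:96024295-96024544 on the plus strand, chr15:78855530-78855779 on the minus strand and chr11:100121567-100121816 on the minus strand.
Slc26a3: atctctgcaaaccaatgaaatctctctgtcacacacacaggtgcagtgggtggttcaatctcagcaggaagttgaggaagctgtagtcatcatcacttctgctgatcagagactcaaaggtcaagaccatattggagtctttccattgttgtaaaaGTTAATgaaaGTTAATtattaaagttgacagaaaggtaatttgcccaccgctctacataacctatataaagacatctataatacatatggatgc
Lct: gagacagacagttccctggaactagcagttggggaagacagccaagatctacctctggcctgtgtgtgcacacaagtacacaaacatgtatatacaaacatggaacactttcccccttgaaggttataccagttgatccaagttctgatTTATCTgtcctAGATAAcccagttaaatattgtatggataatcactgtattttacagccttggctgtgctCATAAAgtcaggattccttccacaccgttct
Gip: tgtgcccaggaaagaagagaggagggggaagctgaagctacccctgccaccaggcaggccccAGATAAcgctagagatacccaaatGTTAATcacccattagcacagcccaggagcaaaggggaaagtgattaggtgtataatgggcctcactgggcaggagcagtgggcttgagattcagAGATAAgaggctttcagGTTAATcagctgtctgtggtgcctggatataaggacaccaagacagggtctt
Lgals2: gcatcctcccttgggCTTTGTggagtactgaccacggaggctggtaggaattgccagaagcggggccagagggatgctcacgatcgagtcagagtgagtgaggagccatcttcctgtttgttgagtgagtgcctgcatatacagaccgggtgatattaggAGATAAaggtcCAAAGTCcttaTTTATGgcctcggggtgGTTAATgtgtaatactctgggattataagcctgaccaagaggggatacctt
Krt13: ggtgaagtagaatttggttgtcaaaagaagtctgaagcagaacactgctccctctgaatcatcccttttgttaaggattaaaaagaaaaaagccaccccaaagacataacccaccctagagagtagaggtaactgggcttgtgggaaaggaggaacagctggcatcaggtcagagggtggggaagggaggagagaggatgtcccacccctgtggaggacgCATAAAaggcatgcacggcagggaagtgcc

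In these windows Slc26a3 held GTTAAT at 94 and 84 bases before the start. Lct held AGATAA on either strand, 101 and 90 bases before the start, and TTTATG on the other strand at 31. Gip held AGATAA and GTTAAT in 2 copies each, and Lgals2 held AGATAA with CAAAGTC and also TTTATG and GTTAAT between 90 and 51 bases before the start, with ACAAAG on the other strand at 235. Krt13 held 1 match, TTTATG on the other strand at 30, and the window of another Krt13 start held 0. The 4 rising genes were chosen for their matches, so these counts do not compare rises with falls. Among other genes that rose, Reg1, Ugt2b5 and Apob held 0 matches and Hao2 held 4. Over the full windows, which add 50 bases after the start, GTTAAT was found in 15.7% of 229 windows of 197 genes called at least 4-fold higher, in 10% of 50 windows of 40 genes called at least 4-fold lower in 5.30% of 18109 windows of the genes on the array and in 7.10% of all 32851 windows. The shares in the same order were 17.5%, 10%, 8.09% and 11.2% for AGATAA, 17%, 10%, 8.19% and 11.9% for TTTATG, and 2.62%, 0%, 3.25% and 3.03% for TTTACG. They were 10%, 4.0%, 4.25% and 4.44% for CAAAGTC and 26.6%, 18%, 15.9% and 18.7% for ACAAAG. For AGATAA and TTTATG the share of the lower genes thus lay above that of the genes on the array and below that of all windows. Several starts of a gene count as several windows, the shares were not tested, and a match of these letters is not a binding site.

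Among 20 intestinal transcription factors, 13 were called higher in pylorus and 2 lower, with a median difference of 1.27 against 0.01 for all genes, of which 12.4% were called higher. Isx, a homeobox gene of the absorptive lining, was at 6.52, 6.92 and 6.03 in stomach and 10.74, 10.61 and 10.23 in pylorus, 16.4-fold higher (adjusted p = 1.3e-08). Onecut2 (3.49 ± 0.18), Prdm1, a repressor of adult enterocyte genes in the fetal gut (3.27 ± 0.35), Cdx1 (3.11 ± 0.56) and the nuclear receptor Hnf4g (2.94 ± 0.34) rose by similar amounts. Hnf4g had 6.42, 7.16 and 6.28 in stomach and 9.44, 10.01 and 9.24 in pylorus, so the lowest pyloric array stood above the highest stomach array, as it did for Cdx2 (13.7-fold, adjusted p = 8.07e-08). Pdx1, which marks the antrum, duodenum and pancreas, differed less, with 9.13, 9.24 and 8.98 in stomach, 10.23, 10.06 and 10.35 in pylorus and 9.82, 10.16 and 10.36 in duodenum (1.10 ± 0.15, adjusted p = 0.000102).

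Of 22 genes of lipid absorption and lipoprotein assembly, 19 were called higher and 1 lower, with a median of 2.19. Apob, the core protein of chylomicrons, was at 5.91, 6.91 and 6.28 in stomach and 11.50, 11.50 and 10.37 in pylorus, 27.0-fold higher (4.76 ± 0.51, adjusted p = 1.38e-05). The apolipoproteins Apoc3 (4.18) and Apoc2 (3.92), the lipid transfer protein Mttp (3.92) and the cholesterol transporter Npc1l1 (3.10) rose too. Apoa4 had 10.55, 12.88 and 11.35 in stomach and 14.54, 14.56 and 14.55 in pylorus (2.96 ± 0.96, adjusted p = 0.0393), and its stomach arrays spread more widely than the pyloric ones. Its call ended without stomach replicates 1 or 3 or pylorus replicates 1, 2 or 3 (adjusted p up to 0.151). The fall was in Clps, the pancreatic colipase, at -1.79, a gene chosen after its value was seen.

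The brush border is the layer of microvilli on the absorptive cell. Of 18 of its structural genes, 14 were called higher and 1 lower (median 2.01). Cdh17 was at 7.15, 9.02 and 7.65 in stomach and 12.72, 12.85 and 12.81 in pylorus, 28.9-fold higher (adjusted p = 7.76e-07). The microvillar protocadherins Cdhr2 and Cdhr5, which link neighbouring microvilli, differed by 3.76 ± 0.53 and 3.76 ± 0.47. Their partners Ush1c (2.72) and Anks4b (2.83), the scaffold Pdzk1 (3.32) and villin, Vil1 (9.55, 9.89 and 9.21 in stomach, 11.94, 11.98 and 11.72 in pylorus), moved the same way.

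Of 19 digestive hydrolases and receptors, 11 were called higher and 1 lower (median 1.32). Lct, the enzyme that splits milk sugar, was at 8.18, 10.79 and 8.49 in stomach and 13.58, 13.48 and 13.42 in pylorus, 20.2-fold higher (4.34 ± 0.97, adjusted p = 0.00542). Its highest stomach value was that of replicate 2. The same array was the highest of the stomach for Mme (4.94, 7.29 and 5.69) and for Alpi, intestinal alkaline phosphatase (8.19, 10.12 and 8.89 in stomach, 13.77, 13.78 and 13.61 in pylorus). Cubn, the receptor for intrinsic factor with vitamin B12, rose by 4.49 and Mgam, a starch-digesting enzyme, by 4.07.

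Of 28 intestinal transporters, 24 were called higher and 1 lower, with the highest median of the 38 lists, 2.57. Slc26a3 was at 5.71, 7.05 and 5.72 in stomach and 11.37, 11.38 and 11.01 in pylorus, 34.1-fold higher (adjusted p = 0.000283). The amino acid transporter Slc7a9 (4.75 ± 0.68) and its partner subunit Slc3a1 (3.80 ± 0.48), the glucose transporters Slc2a2 (4.55 ± 0.41) and Slc5a1 (4.05 ± 0.46), and the chloride channel Cftr (3.70 ± 0.24) were also higher. Cftr, at 10.54, 10.66 and 10.48 in pylorus, reached the duodenal values of 10.43, 10.64 and 10.60, while Slc2a2 at 10.88, 11.21 and 10.49 stayed below 12.12, 12.97 and 12.81. Of 25 detoxification enzymes and pumps, 14 were called higher and 0 lower (median 1.01). Next to Ugt2b5 these included Ugt2b36 (2.79), the carboxylesterase Ces2e (3.35), the export pump Abcc2 (2.61) and the urea cycle enzymes Otc (4.70) and Cps1 (3.84).

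Retinoid genes were called in both directions. Of 20, 5 were called higher and 3 lower (median 0.25), where 12.4% of all genes were called higher and 8.96% lower. Without pylorus replicate 1, 3 were called in each direction. Lrat was at 5.18, 6.88 and 5.34 in stomach and 10.82, 10.91 and 10.58 in pylorus, 31.3-fold higher (adjusted p = 6.63e-06), and the retinol dehydrogenase Rdh7 rose by 2.39. Crabp1, a retinoic acid binding protein, was highest in pylorus, with 7.56, 7.56 and 7.22 in stomach, 8.87, 8.88 and 7.89 in pylorus and 5.83, 5.93 and 6.47 in duodenum (1.10 ± 0.32, adjusted p = 0.0219). Cyp26a1, which breaks retinoic acid down, was lower (-0.87). The call of Rbp2, a cellular retinol binding protein (2.37), ended without stomach replicates 1 or 3 or pylorus replicates 1 or 3 (adjusted p up to 0.111), and that of Crabp1 without stomach replicate 3 or pylorus replicates 1 or 2 (adjusted p up to 0.0982).

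**Figure D2:**
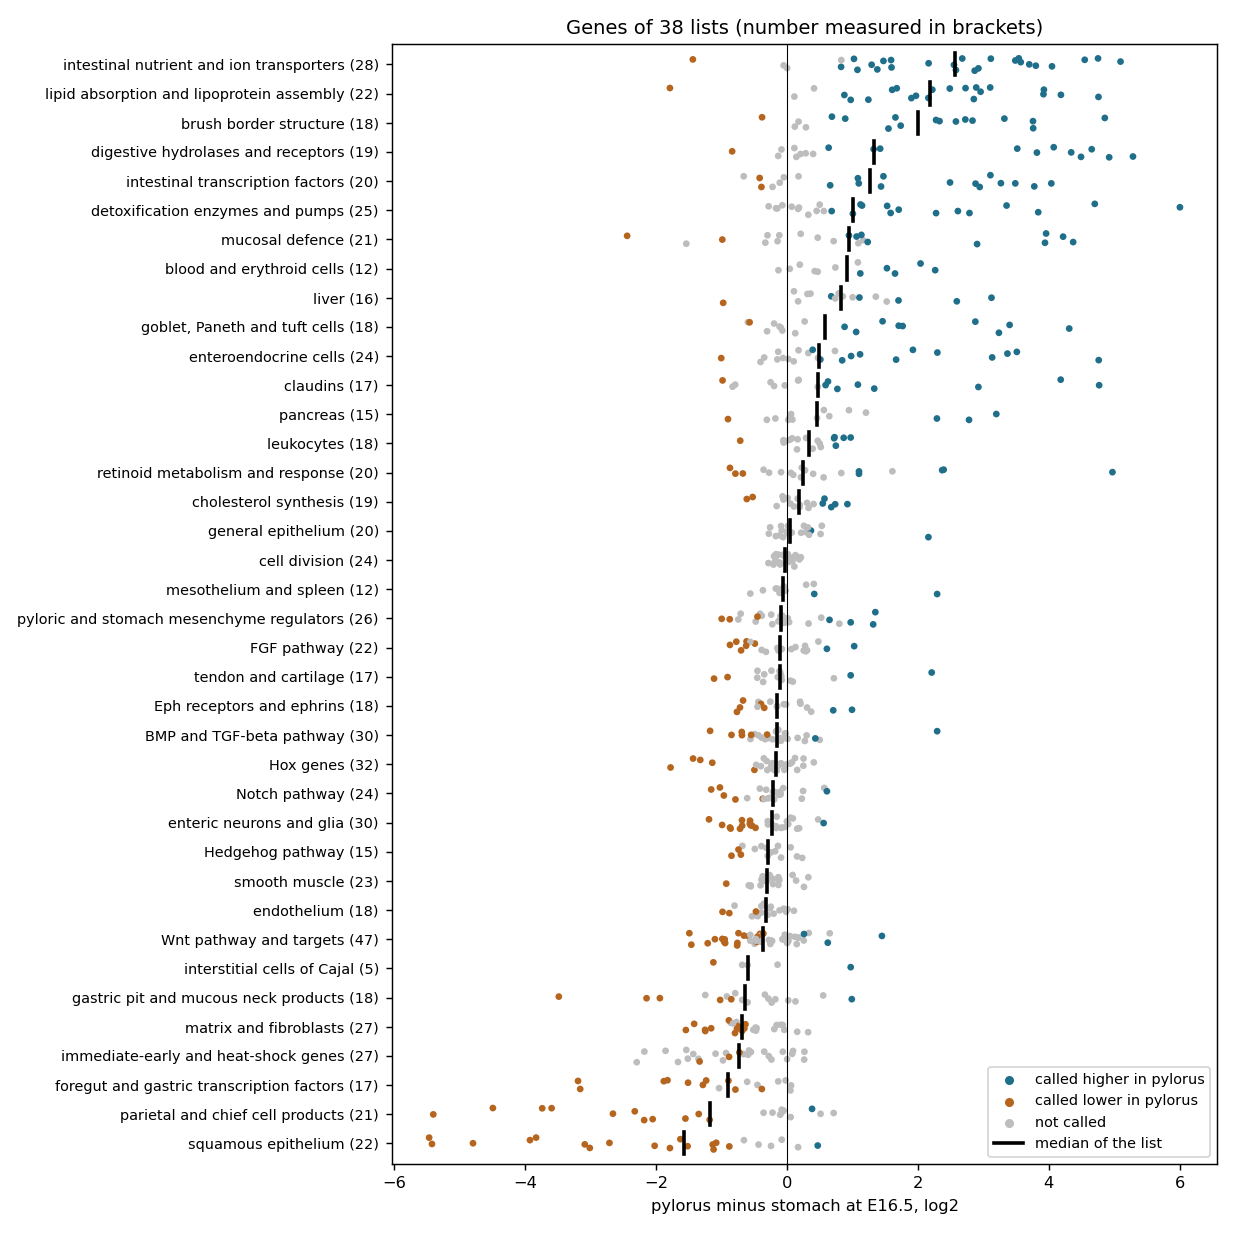
Difference between pylorus and stomach at E16.5 (horizontal axis, log2) of every measured gene of 38 lists, with called genes in colour and the list's median as a black bar. The 4 lists with the highest medians (transporters 2.57, lipid absorption 2.19, brush border 2.01, hydrolases 1.32) are absorptive and the 2 with the lowest medians (squamous epithelium -1.57, parietal and chief cells -1.18) belong to the stomach side.

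Enteroendocrine cells are the scattered hormone cells of the gut lining. Of 24 enteroendocrine genes, 12 were called higher and 1 lower (median 0.49), and the lowest count over left-out arrays was 8 higher and 0 lower. Cck, the hormone that empties the gallbladder, was at 5.30, 6.42 and 5.53 in stomach and 10.74, 10.81 and 9.98 in pylorus, 27.1-fold higher (4.76 ± 0.35, adjusted p = 2.8e-07). Gip, an incretin hormone, was at 6.35, 6.50 and 6.16 and 9.84, 10.18 and 9.52 (11.4-fold, adjusted p = 8.34e-08). Sct, which encodes secretin, differed by 3.37 ± 0.48, the granule protein Chgb by 3.13 ± 0.36, the serotonin-forming Tph1 by 2.30 ± 0.29 and the transcription factor Neurod1 by 1.92 ± 0.24. Gast, the hormone of the antral G cell, was highest in pylorus, at 9.57, 9.57 and 9.58, against 8.74, 8.80 and 8.24 in stomach and 6.39, 6.78 and 6.55 in duodenum (0.98 ± 0.28, adjusted p = 0.0204), a call that ended without stomach replicate 3 or pylorus replicates 1 or 2 (adjusted p up to 0.0946). The gene called lower was Gcg (-1.0), named after its value was seen.

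Of 18 goblet, Paneth and tuft cell genes, 9 were called higher and 1 lower (median 0.58). Tff3, a peptide of goblet cells, was at 9.39, 9.52 and 9.24 in stomach and 13.73, 13.92 and 13.43 in pylorus, 19.8-fold higher (adjusted p = 2.15e-05), with duodenum at 13.07, 13.99 and 13.70. Muc2, the gel-forming mucin of the intestine, was at 5.88, 6.18 and 5.99 and 9.73, 9.74 and 8.78 (3.40 ± 0.43, adjusted p = 6.34e-05). Spink4 (3.24), Fcgbp, a mucus protein (1.77), and Atoh1, the factor that commits cells to the secretory fate (1.71), were also called. The call of Clca1, another goblet product (2.88), ended without stomach replicate 1 (adjusted p up to 0.0563).

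Of 21 genes of mucosal defence, 9 were called higher and 2 lower (median 0.95). Lgals2, a galectin, was at 8.92, 10.33 and 9.74 in stomach and 14.15, 14.17 and 13.78 in pylorus, 20.7-fold higher (adjusted p = 6.14e-08). Leap2, an antimicrobial peptide and ghrelin receptor antagonist, differed by 4.22 ± 0.28, the membrane mucin Muc13 by 3.96 ± 0.75, the antibacterial lectin Reg3b by 3.94 ± 0.40 and Nlrp6 by 2.90 ± 0.39. Reg3b, at 10.03, 10.12 and 9.36 in pylorus, stood above the duodenal values of 8.14, 9.0 and 8.89 in every array. Slpi, a protease inhibitor of mucous secretions, was lower (-2.44).

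Tight junctions seal neighbouring epithelial cells, and claudins set which ions pass. Of 17 claudins, 8 were called higher and 1 lower (median 0.47). Cldn2, which forms a cation pore, was at 7.28, 8.87 and 7.22 in stomach and 12.68, 12.78 and 12.21 in pylorus, 27.2-fold higher (adjusted p = 0.000157). Cldn8 was at 7.06, 6.99 and 6.37 in stomach and 10.83, 11.48 and 10.65 in pylorus (4.18 ± 0.26), and Cldn15 differed by 2.92 ± 0.25. Cldn9 (1.33) and Cldn1 (1.08) were called as well, but the call of Cldn9 ended without stomach replicates 2 or 3 or pylorus replicates 1 or 2 (adjusted p up to 0.0929), and that of Cldn1 without stomach replicates 1, 2 or 3 or pylorus replicates 1 or 2 (adjusted p up to 0.183). In contrast, 20 genes of epithelium in general included 2 called higher and 0 lower. Their median of 0.05 became -0.09 after quantile normalization, with 1 higher and 2 lower. The call in Marveld3, a tight junction protein, was of another size than the rest, at 2.16 ± 0.17.

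**Figure D3:**
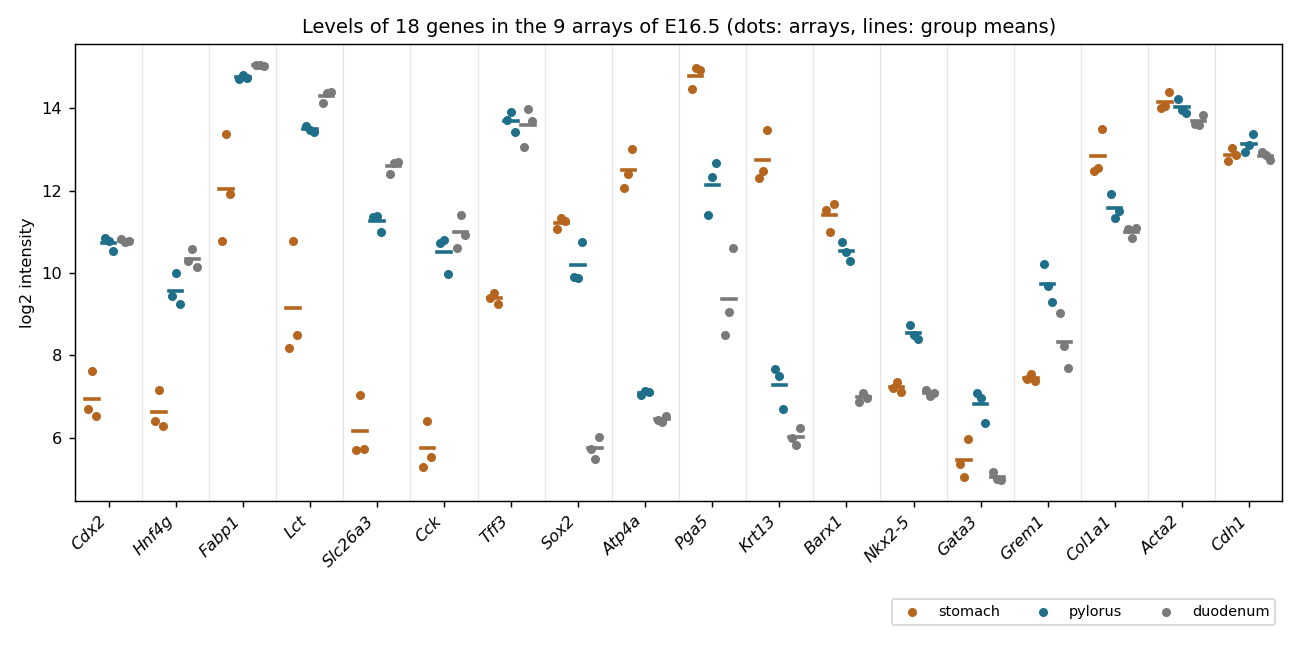
Log2 intensity (vertical axis) of 18 genes in each array of stomach, pylorus and duodenum at E16.5, with group means as lines. Cdx2, Cck and Tff3 in pylorus lie at the duodenal values, Atp4a and Krt13 in pylorus lie near duodenum, and Nkx2-5, Gata3 and Grem1 are highest in pylorus.

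On the gastric side, 10 of 17 foregut and gastric transcription factors were called lower in pylorus and 0 higher (median -0.89), where 8.96% of all genes were called lower. Esrrg, a nuclear receptor of parietal cells, was at 10.54, 10.59 and 10.51 in stomach and 6.94, 7.29 and 7.84 in pylorus (-3.19 ± 0.19, adjusted p = 3.74e-08). Trp63, the factor of basal squamous cells, was at 8.02, 7.88 and 10.64 and 5.88, 5.57 and 5.62 (-3.16 ± 0.52, adjusted p = 0.000605). Pitx1 (-1.88), Elf5 (-1.82), Bhlha15, the secretory factor Mist1 of chief cells (-1.51), and Foxq1, which is needed for mucin in surface cells (-1.28), were lower as well. Foxa2 (-0.61, adjusted p = 0.16), Foxa1 (-0.45, adjusted p = 0.218) and Klf4 (-0.13, adjusted p = 0.772) were not called, and were named after their values were seen.

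Of 18 pit and mucous neck genes, 5 were called lower, 1 higher and 12 not (median -0.64). Of all genes, 8.96% were called lower and 21.4% in either direction. Muc5ac, the surface mucin, was at 9.28, 8.83 and 8.63 in stomach and 6.80, 6.55 and 7.57 in pylorus (-1.94 ± 0.28, adjusted p = 0.000171). Gsdmc2 (-3.48 ± 0.37) and the stem cell antigen Psca (-2.14 ± 0.25) showed larger falls, and Vsig2 (-1.02) and Vsig1 (-0.85), which are adhesion molecules of gastric epithelium, smaller ones. Gkn1, a peptide of pit cells, was at 12.62, 13.50 and 13.28 in stomach and 12, 11.35 and 12.31 in pylorus and was not called (-1.25 ± 0.44, adjusted p = 0.0573), nor was the gastric claudin Cldn18 (-0.79 ± 0.52, adjusted p = 0.31). Gkn3 was higher, at 11.04, 11.49 and 11.62 in stomach and 12.41, 12.18 and 12.53 in pylorus (0.99 ± 0.27, adjusted p = 0.015). Its call ended without stomach replicate 1 (adjusted p up to 0.0753), and that of Vsig2 without pylorus replicate 2 (adjusted p up to 0.058).

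Parietal cells make acid and chief cells pepsinogen. Of 21 parietal and chief cell products, 11 were called lower and 1 higher (median -1.18), and 11 were lower in each fit that left out 1 of the 6 arrays. Atp4b was at 11.94, 11.98 and 12.55 in stomach and 7.61, 7.56 and 7.83 in pylorus, 22.5-fold lower (adjusted p = 3.02e-10). Cblif had 8.85, 9.42 and 9.64 and 5.60, 5.56 and 5.54 (-3.74 ± 0.19), and Kcne2, a channel subunit that recycles potassium for the pump, had 8.29, 8.43 and 8.57 and 4.89, 4.82 and 4.80 (-3.59 ± 0.17). The pepsinogens Pga5 (14.48, 14.97 and 14.94 in stomach, 11.41, 12.33 and 12.68 in pylorus, -2.66 ± 0.48) and Pgc (-2.32 ± 0.43) were also lower. Pga5 in pylorus still exceeded the duodenal values of 8.49, 9.05 and 10.60.

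Squamous genes formed the list with the lowest median. Of 22, 16 were called lower in pylorus and 1 higher, with a median of -1.57 that became -1.16 without stomach replicate 3. Krt4 was at 11.51, 12.25 and 12.55 in stomach and 7.28, 7.40 and 7.25 in pylorus (27.7-fold lower, adjusted p = 9.87e-10), Krt5 at 9.99, 9.52 and 12.32 and 7.08, 6.98 and 6.28 (14.2-fold lower, adjusted p = 6.21e-05), and Sprr3 at 9.93, 10.71 and 10.72 and 7.03, 6.21 and 6.35. In Krt13, Krt4, Krt5 and Trp63 stomach replicate 3 was the highest array. Krt15 was lower (-3.09). Squamous epithelium lines the mouse forestomach, and glands line the antrum. The content of forestomach in the stomach pieces and the part of squamous cells in the other differences were not tested. The mean level of the list was 9.34, 9.74 and 10.30 in stomach and 7.92, 7.76 and 7.67 in pylorus.

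Of 26 regulators of pyloric and stomach mesenchyme, 4 were called higher and 3 lower, near the 12.4% and 8.96% of all genes (median -0.09). Nkx2-5 was at 7.21, 7.36 and 7.12 in stomach, 8.75, 8.49 and 8.40 in pylorus and 7.16, 7.01 and 7.08 in duodenum, 2.49-fold higher than stomach (1.32 ± 0.18, adjusted p = 0.000119). Gata3 was at 5.36, 5.05 and 5.97, 7.09, 6.97 and 6.37 and 5.18, 4.99 and 4.98 in the same order (1.35 ± 0.35, adjusted p = 0.0118). Both were highest in pylorus, and neither overlapped with a neighbour. Tbx3 was higher by 0.97, with a duodenal mean above the pyloric one (10.16 against 8.64). The call of Meis2 (0.65) ended without stomach replicates 1 or 3 or pylorus replicates 1, 2 or 3 (adjusted p up to 0.134).

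Barx1 was at 11.53, 11 and 11.67 in stomach, 10.76, 10.52 and 10.30 in pylorus and 6.88, 7.09 and 6.97 in duodenum (-0.87 ± 0.23, adjusted p = 0.0141). Pylorus thus stood between its neighbours and nearer to stomach. Nr2f2, a nuclear receptor of gut mesenchyme, was lower (-1.0, adjusted p = 0.00182). The call of Barx1 ended without stomach replicates 1 or 3 or pylorus replicate 3 (adjusted p up to 0.068), and that of Gata3 without pylorus replicate 1 (adjusted p up to 0.0519). Six2, needed for the sphincter region, was at 9.03, 8.97 and 8.82 in stomach, 8.98, 8.86 and 8.76 in pylorus and 6.69, 6.21 and 6.63 in duodenum, so that stomach and pylorus overlapped and duodenum was lower.

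Of 32 Hox genes, which give cells their position along the body, 5 were called lower and 0 higher (median -0.17). Among all genes, 8.96% were called lower and 12.4% higher. Hoxc5 was at 7.21, 7.31 and 9.07 in stomach and 6.44, 5.96 and 5.86 in pylorus (-1.78 ± 0.37, adjusted p = 0.00342), and Hoxb6 (-1.32) and Hoxc4 (-1.14) were lower. Hoxc8 (4.97, 5.17 and 7.66 in stomach, 4.58, 4.46 and 4.46 in pylorus) was led by stomach replicate 3, and its call ended without pylorus replicates 1, 2 or 3 (adjusted p up to 0.0967), that of Hoxa7 (-0.50) without stomach replicate 3 or pylorus replicate 2 (adjusted p up to 0.0634). The count of lower Hox genes was 8 without stomach replicate 2 and 3 without pylorus replicate 2, the latter near the share of all genes.

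Most of the called signalling genes were lower in pylorus, where 8.96% of all genes were called lower and 12.4% higher. In some fits without 1 array, the lower calls of the Hedgehog, BMP, Notch and Eph lists came near or under 8.96%. Hedgehog ligands are made by the gut epithelium and read by the mesenchyme. Of 15 Hedgehog genes, 3 were called lower (median -0.29). The ligand Ihh was at 11.67, 11.45 and 11.12 in stomach and 10.54, 10.48 and 11.11 in pylorus (-0.70 ± 0.18, adjusted p = 0.0112), and the ligand Shh at 12.37, 12.45 and 12.31 and 11.57, 11.95 and 12.14, which was not called (-0.49 ± 0.19, adjusted p = 0.0864). The co-receptor Boc (-0.74) and the target Gli1 (-0.85) were the others called. The calls of Ihh and Gli1 ended without stomach replicate 1 or pylorus replicates 1 or 2 (adjusted p up to 0.0609) and without stomach replicates 1 or 3 or pylorus replicates 1, 2 or 3 (adjusted p up to 0.133), and 1 call was left in the list without stomach replicate 1, pylorus replicate 1 or pylorus replicate 2.

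Of 47 Wnt pathway genes and targets, 17 were called lower and 3 higher (median -0.36). The lower count was 9 without stomach replicate 3, 10 without pylorus replicate 2 and 11 without stomach replicate 1. Among ligands, Wnt4 was at 10.43, 10.36 and 11.30 in stomach and 9.22, 9.18 and 9.31 in pylorus (-1.46 ± 0.19, adjusted p = 7.5e-05). Among receptors, Fzd2 (-0.99), Lrp5 (-1.21) and the stem cell receptor Lgr5 (9.10, 8.14 and 9.12 in stomach, 7.01, 7.14 and 7.74 in pylorus, -1.49 ± 0.34) were lower. Rnf43, a target that removes Wnt receptors, was lower (-1.10). The secreted inhibitor Sfrp5 was higher, at 7.37, 7.36 and 7.56 in stomach and 9.21, 9.02 and 8.41 in pylorus (1.45 ± 0.16, adjusted p = 2e-05). The call of Rnf43 ended without stomach replicates 1 or 3 or pylorus replicate 2 (adjusted p up to 0.0564) and that of Lrp5 without stomach replicate 1 or pylorus replicate 2 (adjusted p up to 0.066).

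Of 30 BMP and TGF-beta genes, 2 were called higher and 6 lower (median -0.16), with 10 lower after quantile normalization and 3 without pylorus replicate 2. Grem1, a secreted BMP antagonist made by gut mesenchyme, was at 7.42, 7.54 and 7.38 in stomach, 10.22, 9.69 and 9.31 in pylorus and 9.02, 8.24 and 7.69 in duodenum, 4.90-fold above stomach (2.29 ± 0.32, adjusted p = 0.000153). Every pyloric array stood above every array of both neighbours. The antagonist Chrd (-0.69) and the BMP targets Id3 (-0.69) and Id4 (-0.55) were lower. Tgfb1 (-0.85) and the activin antagonist Fst (8.89, 8.75 and 9.93 in stomach, 8.07, 7.97 and 8.01 in pylorus, -1.17) lost their calls without stomach replicate 3 or pylorus replicate 2 (adjusted p up to 0.0801) and without stomach replicates 1 or 3 or pylorus replicates 1, 2 or 3 (adjusted p up to 0.179).

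Of 22 FGF genes, 2 were called higher and 6 lower (median -0.11, and 0.0 without stomach replicate 3). Fgfr2, the epithelial receptor for the mesenchymal ligands, was at 10.67, 10.60 and 11.33 in stomach and 10.04, 9.94 and 10.30 in pylorus (-0.77 ± 0.16, adjusted p = 0.00263). Klb, a co-receptor for endocrine FGFs, was higher by 1.03, and Fgf20 (-0.70) and Fgfr3 (-0.62) were lower. Spry1 (-0.87) and Fgf7 (-0.62) lost their calls without stomach replicate 3 or pylorus replicate 2 (adjusted p up to 0.0851) and without stomach replicate 3 or pylorus replicates 1 or 2 (adjusted p up to 0.125). Of 24 Notch genes, 1 was called higher and 5 lower, with 2 to 8 lower when 1 array was left out. Lfng, which modifies the receptor, was lower (-1.16, adjusted p = 0.00922) and so was the target Heyl (-0.79). Of 18 Eph receptors and ephrins, 2 were called higher and 5 lower, with 1 lower without stomach replicate 1, pylorus replicate 1 or pylorus replicate 2. The ligand Efnb2 was at 10.17, 10.30 and 10.56 in stomach and 11.21, 11.41 and 11.39 in pylorus (0.99 ± 0.17, adjusted p = 0.000816), Efna1 was higher by 0.71 and the receptor Epha4 lower (-0.76).

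Few smooth muscle genes were called. Of 23, 0 were called higher in limma and 1 lower, Smtn (-0.93 ± 0.22, adjusted p = 0.00688). Acta2, smooth muscle actin, was at 14, 14.07 and 14.40 in stomach and 14.23, 13.96 and 13.89 in pylorus (-0.13 ± 0.12, adjusted p = 0.476). The median of -0.30 became -0.06 without stomach replicate 3, the array with the highest mean level of the list (10.70, 10.63 and 11.34 in stomach, 10.87, 10.61 and 10.43 in pylorus). Flna (-0.58) was not called, but was called after quantile normalization and without stomach replicate 2 or pylorus replicate 1. At an unadjusted p under 0.05, 0 were higher and 6 lower.

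Of 27 matrix and fibroblast genes, 13 were called lower and 0 higher, with a median of -0.68. Col1a1, the main fibrillar collagen, was at 12.47, 12.55 and 13.49 in stomach, 11.91, 11.35 and 11.51 in pylorus and 11.06, 10.86 and 11.10 in duodenum (-1.25 ± 0.24, adjusted p = 0.00197). Eln, elastin, differed by -1.42 ± 0.20, the microfibril genes Mfap5 and Mfap2 by -1.54 and -0.89, the cross-linking enzyme Lox by -1.25 and fibronectin, Fn1, by -1.16. Stomach replicate 3 had the highest level of the list among the stomach arrays (10.95, 11.17 and 11.60, against 10.84, 10.63 and 10.38 in pylorus). Lower calls numbered 8 without stomach replicate 3, 8 without pylorus replicate 2, 7 without pylorus replicate 3 and 20 after quantile normalization. Of 17 tendon and cartilage genes, 2 were called in each direction, near the 12.4% higher and 8.96% lower of all genes. Col9a1, a cartilage collagen, was at 6.67, 6.52 and 6.42 in stomach, 9.05, 9.06 and 8.13 in pylorus and 5.44, 5.68 and 4.98 in duodenum (2.21 ± 0.37, adjusted p = 0.000728), and was highest in pylorus. The other probe set of Col9a1 differed by -0.16. Thbs4 was higher (0.97), while Col11a1 (-1.11) and Sox5 (-0.91) were lower.

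Of 30 genes of enteric neurons and glia, 12 were called lower and 1 higher (median -0.23), with 8 to 11 lower when 1 array was left out. Nos1, which makes the nitric oxide that relaxes the sphincter, was at 9.22, 9.12 and 9.48 in stomach and 8.70, 8.46 and 8.60 in pylorus (-0.69 ± 0.13, adjusted p = 0.00128). The adhesion molecule L1cam (-1.19 ± 0.21), the neuropeptide gene Cartpt (-0.99 ± 0.19), the transcription factor Phox2a (-0.87 ± 0.22), Uchl1 (-0.86) and the neuronal filament gene Prph (-0.72) were lower, and tubulin Tubb3 was at 8.69, 8.45 and 8.38 and 8.13, 7.69 and 8.10 (-0.53). Calls ended without pylorus replicate 2 (adjusted p up to 0.0586) for Phox2a, without pylorus replicate 3 (adjusted p up to 0.0512) for Uchl1 and without stomach replicate 1 or pylorus replicate 2 (adjusted p up to 0.104) for Tubb3. Kit, the receptor that marks the pacemaker cells of Cajal, was at 11.29, 11.14 and 10.73 in stomach, 9.88, 9.92 and 9.99 in pylorus and 8.23, 7.80 and 7.47 in duodenum (-1.12 ± 0.24, adjusted p = 0.00448). The list of these cells held 5 genes, of which 1 was called higher, 1 lower and 3 not (median -0.60). Of 24 genes of cell division, 0 were called in limma in either direction and 0 had an unadjusted p under 0.05, the median was -0.03, and the most extreme members were Foxm1 (-0.28 ± 0.14, adjusted p = 0.173) and Rrm2 (0.21 ± 0.20, adjusted p = 0.496).

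Markers of other organs and of blood were counted in the same way, where 12.4% of all genes were called higher and 8.96% lower. Of 16 liver genes, 5 were called higher and 1 lower (median 0.82), with 3 higher without stomach replicate 3 and 9 without pylorus replicate 3. Ambp, a plasma protein precursor, was at 9.17, 8.88 and 7.67 in stomach, 11.78, 11.76 and 11.55 in pylorus and 10.21, 10.76 and 10.33 in duodenum (3.12 ± 0.32, adjusted p = 8.62e-06), and Serpina1b, an antitrypsin, differed by 2.59 ± 0.39. Afp, which the embryonic gut also makes (1.70), Itih3 (1.11) and Itih2 (-0.97) lost their calls without stomach replicate 3 or pylorus replicates 1 or 2 (adjusted p up to 0.14), without stomach replicate 3 or pylorus replicate 1 (adjusted p up to 0.0673) and without stomach replicates 1, 2 or 3 or pylorus replicates 1 or 2 (adjusted p up to 0.128). Of 12 erythroid genes, 5 were called higher and 0 lower, and 1 was called without stomach replicate 3, pylorus replicate 1 or pylorus replicate 2. Hbb-y, an embryonic globin, was at 8.64, 8.58 and 6.05 in stomach and 11, 10.39 and 8.67 in pylorus (2.26 ± 0.69, adjusted p = 0.0297), so the third array of each tissue was the lowest. Its call ended without stomach replicate 3 or pylorus replicates 1 or 2 (adjusted p up to 0.15). Alas2, the first enzyme of erythroid heme synthesis, was higher by 1.53. Of 15 pancreas genes, 3 were called higher, 1 lower and 11 not, with 1 higher without stomach replicate 1. Spink1 (3.20), Iapp (2.78) and Ctrb1, chymotrypsinogen (7.35, 8.04 and 7.0 in stomach, 9.83, 10.87 and 8.56 in pylorus), were the higher ones, and the call of Ctrb1 ended without stomach replicates 1 or 3 or pylorus replicates 1 or 2 (adjusted p up to 0.15). The endocrine pancreas factor Nkx6-1 was lower (-0.90). The call of Spink1 ended without stomach replicate 1 (adjusted p up to 0.0537) and that of Nkx6-1 without pylorus replicates 1 or 2 (adjusted p up to 0.0697).

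Of 18 leukocyte genes, 5 were called higher and 1 lower, where 12.4% of all genes were called higher and 8.96% lower. The higher calls numbered 3 without stomach replicates 1 or 3 or pylorus replicates 1 or 2, and 9 without pylorus replicate 3. Ptprc, the common leukocyte antigen, was at 7.02, 7.07 and 7.17 in stomach and 7.78, 7.91 and 7.81 in pylorus (0.75 ± 0.13, adjusted p = 0.000827), and Cd52 was higher by 0.87. Laptm5 was higher by 0.97 in the probe set used and lower (-0.23) in the mean of its probe sets, where its call was gone. Of 18 endothelial genes, 3 were called lower and 0 higher, and 0 were called without stomach replicate 3, pylorus replicate 2 or pylorus replicate 3. Pecam1 was at 6.90, 7.42 and 7.55 in stomach and 7.05, 7.11 and 6.11 in pylorus and was not called (-0.53 ± 0.28, adjusted p = 0.199). Of 12 genes of mesothelium and spleen, 2 were called higher and 0 lower. Upk1a, a uroplakin, was at 8.08, 8.21 and 7.99 in stomach, 10.34, 10.63 and 10.19 in pylorus and 8.52, 8.36 and 8.18 in duodenum (2.29 ± 0.13, adjusted p = 2.49e-08), while the spleen gene Tlx1 was at 6.08, 6.0 and 6.08 and 5.90, 5.94 and 6.18 in stomach and pylorus. Of 19 cholesterol synthesis genes, 5 were called higher and 2 lower. After quantile normalization 2 were higher and 3 lower, and 2 were higher without stomach replicates 1 or 3 or pylorus replicates 1 or 2. The calls of Insig1 (0.92), Ebp (0.68), Nsdhl (0.57) and Sc5d (0.55) each ended without at least 2 single arrays, while Tm7sf2 (0.74) and Srebf2 (-0.61) kept theirs in every fit without 1 array.

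A pair of stomach arrays stood apart from the rest of their group. Stomach replicate 2 had the highest stomach levels of intestinal genes, with mean levels of 9.25, 10.20 and 9.62 for lipid genes and 6.77, 7.75 and 7.01 for hydrolases in the 3 stomach arrays, against 11.86, 11.97 and 11.68 and 9.28, 9.24 and 9.11 in pylorus. Without it the median differences of these lists were 2.39 and 1.48, larger than with it. Stomach replicate 3 had the highest levels of immediate-early and heat-shock genes, 9.60, 9.33 and 11.24 in stomach against 9.29, 9.23 and 9.16 in pylorus. Fos, an immediate-early gene, was at 10.37, 10.25 and 13.21 in stomach and 10.10, 9.81 and 9.87 in pylorus (-1.35 ± 0.79, adjusted p = 0.251). The same array was the highest of the stomach in muscle, matrix, endothelial and squamous genes and the lowest in liver and erythroid genes, and the part of this array's handling or content in those differences was not tested. Of 27 immediate-early and heat-shock genes, 3 were called lower (median -0.73), and 0 without stomach replicate 3 (median -0.21). In directions with 0 calls in limma, members with an unadjusted p under 0.05 numbered 0 higher for foregut factors, Hedgehog, matrix, endothelial and immediate-early genes, 1 higher for Hox genes, 1 lower for detoxification and for general epithelial genes, and 0 lower for erythroid genes. Erythroid levels were 6.77, 6.57 and 5.93 in stomach and 7.79, 7.52 and 6.81 in pylorus, and liver levels 8.31, 8.05 and 7.02 and 9.31, 8.73 and 8.23.

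**Figure D4:**
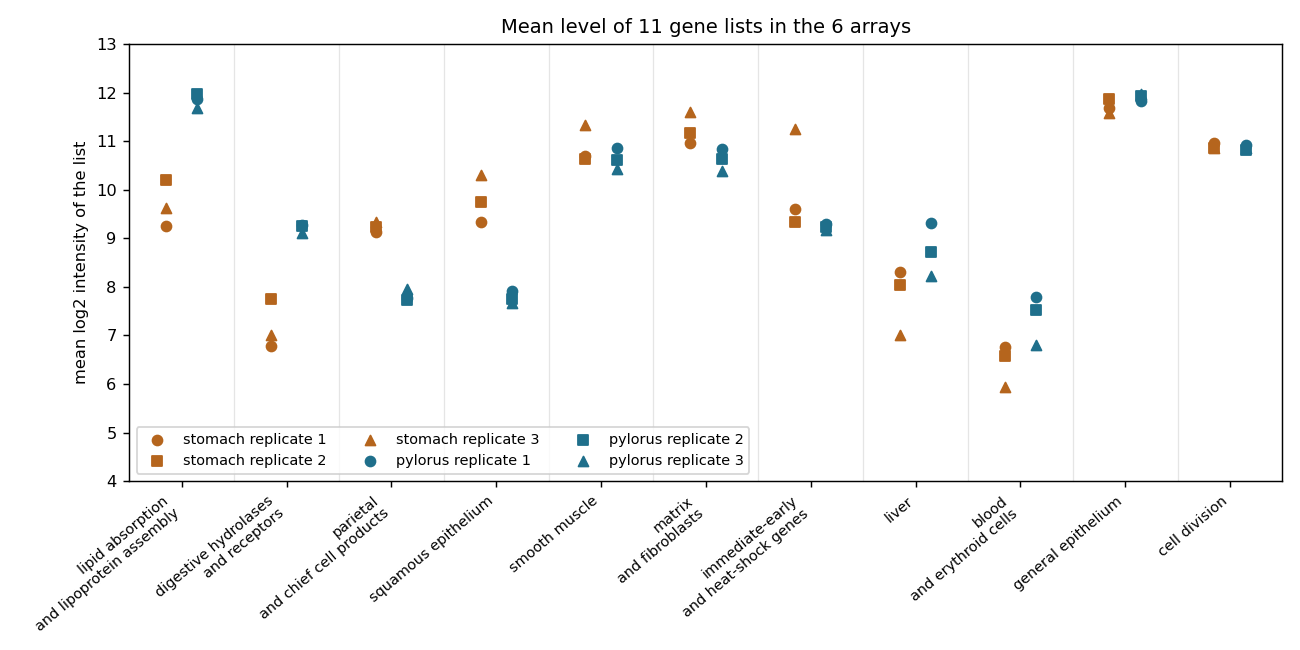
Mean log2 intensity (vertical axis) of 11 gene lists in the 6 arrays, with the tissue by colour and the replicate by symbol. Stomach replicate 3 stands above the other stomach arrays in smooth muscle (11.34), matrix (11.60) and immediate-early genes (11.24) and below them in liver (7.02) and erythroid genes (5.93), and stomach replicate 2 stands above them in lipid genes (10.20) and hydrolases (7.75).

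The same comparison at E14.5, on other arrays, called 649 genes (3.57%), 377 of them higher (2.07%) and 272 lower (1.50%), against 3894 at E16.5. Genes called at both ages numbered 442, which is 68.1% of the calls of E14.5 and 11.4% of those of E16.5. Of these, 440 had the same direction, 267 higher and 173 lower. The change of the difference with age was itself called for 453 genes (2.49%), more positive at E16.5 for 281 (1.54%) and more negative for 172 (0.945%). That count came down to 252 without stomach replicate 3, 299 without pylorus replicate 1 and 209 without pylorus replicate 2 of E16.5. Among the arrays of E14.5, pylorus replicate 1 stood apart, with an SD of the difference of 0.4802 and 0.439 from the other pyloric arrays, against 0.1662 between those. Without it 701 changes with age were called, and between 216 and 324 without any other stomach or pyloric array of E14.5. The calls at E14.5 themselves ranged from 351 to 791 over the same fits. Of the 453, 421 were called at E16.5.

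**Figure D5:**
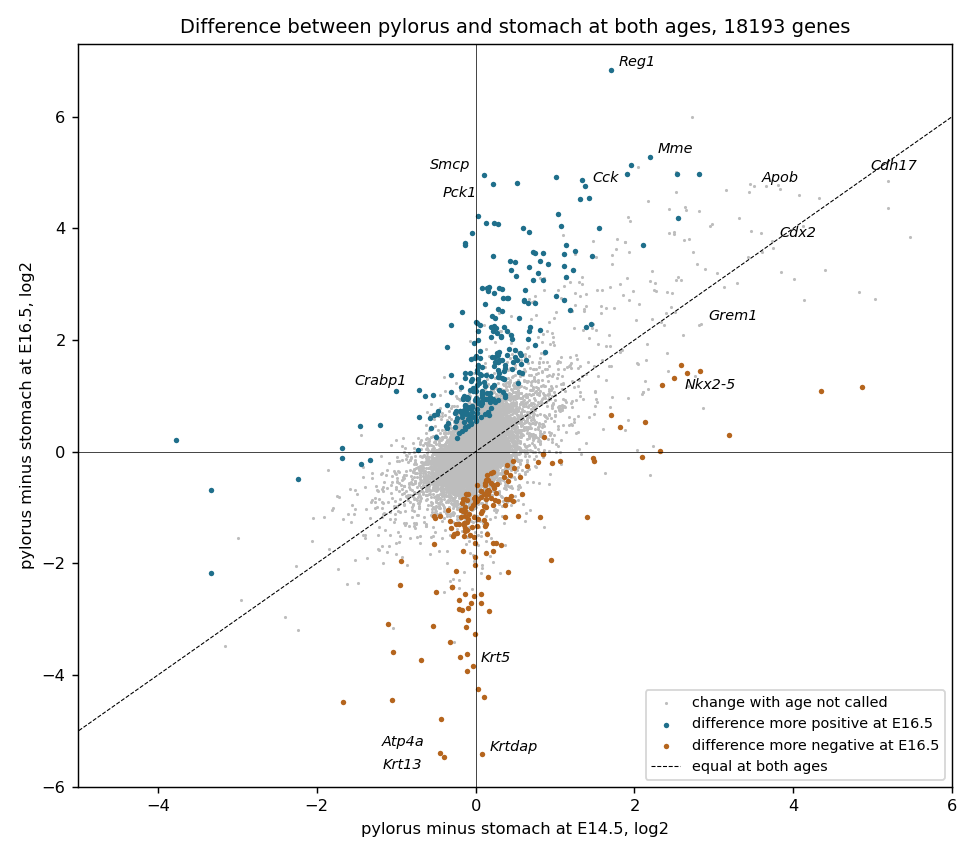
Difference between pylorus and stomach at E14.5 (horizontal axis, log2) and at E16.5 (vertical axis, log2) for 18193 genes, with genes in colour where the change with age was called. Krt13, Krtdap and Atp4a lie near 0 at E14.5 and below -5 at E16.5, Reg1 and Smcp lie far above the line of equality, and Cdx2 and Grem1 lie close to it.

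Some differences were already present at E14.5. Cdx2 differed by 3.73 at E14.5 and 3.78 at E16.5, a change of 0.05 ± 0.34 (adjusted p = 0.969). Cdh17 went from 5.20 to 4.85 (change -0.34 ± 0.56, adjusted p = 0.819) and Grem1 from 2.84 to 2.29 (change -0.55 ± 0.46, adjusted p = 0.602). These 3 genes were called at both ages. Nkx2-5 was further apart at the younger age, with 7.42, 7.33 and 7.43 in stomach and 9.31, 10.19 and 10.16 in pylorus at E14.5, a difference of 2.49 that became 1.32 (change -1.18 ± 0.25, adjusted p = 0.0246). The change in Nkx2-5 lost its call without pylorus replicate 2 (adjusted p up to 0.0728) of E16.5, and without any single stomach or pyloric array of E14.5 but pylorus replicate 1 (adjusted p up to 0.0706). Gata3 differed by 2.76 at E14.5 (change -1.41 ± 0.49, adjusted p = 0.153).

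Of the 22 squamous genes, 0 were called by limma between pylorus and stomach at E14.5 (at an unadjusted p under 0.05, 1 higher and 2 lower), and the change with age was called more negative for 11. Krt13 at E14.5 was at 6.56, 7.13 and 6.79 in stomach and 6.29, 6.29 and 6.72 in pylorus, so that the difference went from -0.39 to -5.46 (change -5.07 ± 0.40, adjusted p = 6.35e-06). Krtdap changed by -5.50 and Krt4 by -4.35. The envelope genes Rptn and Csta1, which were not in the list, changed by -4.50 and -4.29. Atp4a at E14.5 was at 6.51, 7.31 and 6.44 in stomach and 6.53, 6.22 and 6.16 in pylorus, a difference of -0.45 (change -4.95 ± 0.32, adjusted p = 1.09e-06). Of the 21 parietal and chief cell products, the change was called more negative for 6 and more positive for 1.

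Calls higher in pylorus made up 2.07% of all genes at E14.5 and 12.4% at E16.5, so they were more frequent at E16.5 in general. Of the 28 transporters, 8 were called higher at E14.5, whereas 24 were at E16.5, and the change was called more positive for 8. It was called more positive for 1 of 22 lipid genes, 2 of 18 brush border genes, 2 of 19 hydrolases and 5 of 25 detoxification genes. The counts were 4 of 24 for enteroendocrine genes and 1 of 18 for goblet, Paneth and tuft cell genes. For most members of these lists the change was thus not called. Over all genes it was called more positive for 1.54%. In the lipid list and in the goblet, Paneth and tuft cell list it was called for only 1 gene each, too few to set beside that share. Reg1 at E14.5 was at 4.47, 5.0 and 4.88 in stomach and 8.28, 5.21 and 5.99 in pylorus, a difference of 1.71 that was not called (adjusted p = 0.273), and the change to E16.5 was 5.12 ± 1.04 (adjusted p = 0.0166). That call ended without pylorus replicate 2 (adjusted p up to 0.0536) of E16.5 and without stomach replicate 2 of E14.5 (adjusted p = 0.0514). Smcp changed by 4.85 ± 0.41 (adjusted p = 8.5e-06), Pck1, the rate-setting enzyme of glucose synthesis, by 4.57 ± 0.38 (adjusted p = 8.5e-06), Clca4b by 4.28, Leap2 by 4.19 and the chemokine Cxcl15 by 3.98. Cxcl15 was at 9.63, 9.68 and 9.65 in stomach and 5.27, 6.16 and 6.21 in pylorus at E14.5 (-3.77) and at 8.20, 7.98 and 7.62 and 7.95, 8.24 and 8.24 at E16.5 (0.21, adjusted p = 0.52), so the younger tissues were apart and the older ones were not called. Cck at E14.5 differed by 1.38 (change 3.38 ± 0.50, adjusted p = 0.00161), and Muc2 by 0.49 (change 2.91 ± 0.61, adjusted p = 0.0201). The change in Muc2 lost its call without pylorus replicates 1 or 2 (adjusted p up to 0.0683) of E16.5, and without stomach replicates 2 or 3 or pylorus replicates 2 or 3 of E14.5 (adjusted p up to 0.0565).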

How the data were processed

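The deposited values are log2 intensities of 45101 probe sets. The submitters' processing notes name GCOS and RMA. The sources used here do not give their versions, or whether RMA was run once over all arrays. Of these probe sets, 34945 carried exactly 1 gene symbol. Each gene was represented by its probe set with the highest mean over all arrays, for 18193 genes. No further scaling was applied, and array medians lay between 6.75 and 6.92.

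Duodenal replicates 1 and 2 of E14.5 differed by less than other pairs of replicates (SD of the difference 0.0798, against 0.1662 to 0.4861) and were averaged, which left 17 samples. The linear model held a mean per tissue and age and was fitted with limma 3.58.1 (R 4.3.3), with 11 residual and 3.95 prior degrees of freedom. P-values were adjusted by Benjamini-Hochberg over all genes, and a gene was called below 0.05. The procedure was run on simulated data of 18193 genes, where 67, 67 and 66 genes had log2 changes of 0.5, 1 and 2. At E16.5, 29.9%, 91% and 98.5% of these were recovered, and 3.9% of the calls were false. For the change with age, 7.5%, 71.6% and 97% were recovered, and 3.3% of the calls were false. On the measured arrays 21.4% of genes were called at E16.5. Spreads there could differ between tissues, as for Slc26a3 at E14.5 (SD 2.05 in pylorus, 0.14 in stomach). Whether the simulated rates hold for the measured arrays was not tested. Python 3.11.15 with pandas 2.3.3 and matplotlib 3.10.9 made tables and figures.

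The 38 gene lists, the tests and the rule for naming genes were chosen with earlier results of these data known. The rule took 220 genes: the 15 strongest called rises and falls whose arrays did not overlap, passing over clone and predicted-gene names, as many as 6 called genes per list (the 2 with the largest difference where fewer than 2 were called), the 6 largest called changes with age in each direction, and 20 markers. Other genes were named after their values were seen. Promoter windows were found for 165 of the 220. Lists were described by counts and medians and not tested. Alternatives were other arrays in the fit, other scaling, averaging over the probe sets of a gene, a filter at log2 7, an intensity trend, a replicate block and leaving out each stomach or pyloric array of E16.5. Leaving out each such array of E14.5 was added after the data were seen.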

Additional observations from a re-analysis of the deposited data

Results flagged for a closer look

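Among the genes named by rule, the change of the pylorus minus stomach difference from E14.5 to E16.5 was itself called in limma for 54, more positive for 32 and more negative for 22. Each value that follows is that change in log2, and none is explained here. Every call rests on 3 pools per tissue and age.

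Among the 15 largest rises at E16.5, those that became more positive were Reg1 5.12, Mme 3.09, ccdc198 3.17, Lrat 3.06, Abhd3 2.43, Scin 2.16, Smcp 4.85, Mep1b 3.91, Clec2h 3.54 and Clca4b 4.28. Other genes that became more positive were Pdzk1 2.21, Slc2a2 3.12, Cftr 1.59, Ces2e 2.45, Ugt2b36 1.77, Rdh7 2.14, Pck1 4.57 and Marveld3 1.49. Genes of the endocrine, goblet, defence and claudin lists that became more positive were Cck 3.38, Gip 3.30, Tph1 2.27, Muc2 2.91, Leap2 4.19, Reg3b 3.27, Cxcl15 3.98, Cldn8 1.63, Cldn15 2.78 and Cldn1 2.08. Of the remaining positive changes, Crabp1 of the retinoid list changed by 1.81, the ephrin Efnb2 by 1.63, the plasma protein gene Ambp by 1.99 and the uroplakin Upk1a by 0.84.

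Squamous genes that became more negative were Krt13 -5.07, Krtdap -5.50, Krt4 -4.35, Rptn -4.50, Csta1 -4.29, Sprr3 -3.81, Krt5 -3.80, Crct1 -3.49, Cnfn -3.51 and Krt15 -1.98. Gastric genes that became more negative were Atp4a -4.95, Atp4b -2.82, Cblif -3.05, Kcne2 -2.55, Bhlha15 -1.37 and Psca -1.90, and the cytochrome gene Cyp2f2 changed by -3.39. Mesenchymal and signalling genes that became more negative were Nkx2-5 -1.18, Wnt4 -1.22, Sfrp5 -1.37, Tgfb1 -1.27 and Eln -1.28. Sfrp5 and Nkx2-5 stayed higher in pylorus at both ages, with smaller differences at E16.5. When 1 stomach or pyloric array of E16.5 was left out, between 35 and 52 of the 54 changes kept their call, with 35 without pylorus replicate 2. When 1 such array of E14.5 was left out, between 35 and 52 did so, with 52 without pylorus replicate 1, which stood apart from the other pyloric arrays of that age, and 35 without stomach replicate 2.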

How the results depend on the processing

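Arrays limit the precision here by their number, 3 pools per tissue. With 1 stomach or pyloric array of E16.5 left out, the calls at E16.5 ranged from 2482 (without pylorus replicate 2) to 3981, the higher calls from 1535 to 2250, and the lower calls from 947 to 1731. The calls of a change with age ranged from 209 to 650, those more positive from 133 to 365 and those more negative from 76 to 285. With 1 such array of E14.5 left out, an alternative added after the data were seen, the calls at E16.5 ranged from 3540 to 4569 (2070 to 2633 higher, 1470 to 1936 lower), those at E14.5 from 351 to 791 (195 to 443 higher, 155 to 348 lower), and the changes with age from 216 to 701 (133 to 459 more positive, 83 to 242 more negative). Fits of the stomach and pylorus arrays of E16.5 alone called 3380 genes, of the E16.5 arrays alone 2988, and averaging over the probe sets of each gene 3674. Higher genes made up 58.1% of calls, 43.1% after quantile normalization and 56.3% after centring each array.

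Under the alternatives tried, 1 of the 207 called genes named by rule turned in sign, Laptm5, which went from 0.97 to -0.23 when its probe sets were averaged, where 1 of the others differed by -2.2. Without 1 array, between 160 and 201 of the 207 kept their call for arrays of E16.5, and between 198 and 207 for arrays of E14.5. Of 570 list medians under the alternatives, 30 moved by more than the SD between replicates, and the cause was not tested.

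Replicate numbers gave correlations of -0.02, 0.26 and 0.06 between stomach and pyloric deviations, so they were not taken as pairs, and a fit with the replicate block called 3827 genes at E16.5, 607 at E14.5 and 483 changes with age.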

Other observations

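Families defined by symbol, chosen after their values were seen, add the following values for pylorus minus stomach at E16.5, where 12.4% of all genes were called higher and 8.96% lower. Of 44 genes of NADH dehydrogenase, the first complex of the respiratory chain, 25 were called higher and 1 lower (median 0.34), but 11 higher after quantile normalization (median 0.16) and 13 without pylorus replicate 2 or without stomach replicate 3. Of 25 cytochrome c oxidase genes, 11 were higher and 1 lower, with 4 higher after quantile normalization. Of 46 ribosomal protein genes, 1 was higher and 0 lower, with a median of 0.12 that became -0.01 after quantile normalization. Of 347 solute carriers, 83 were called higher and 34 lower, and of 11 UDP glucuronosyltransferases 6 were higher and 0 lower.

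Of 48 keratins, 17 were called lower and 0 higher, and of 9 Sprr genes, which encode cornified envelope proteins, 7 were lower and 0 higher. Of 42 collagens, 1 was called higher and 17 lower, with 10 lower without stomach replicate 3. Of 84 potassium channel genes, 2 were higher and 9 lower. Of 6 Iroquois genes, homeobox factors of regional patterning, 4 were lower and 0 higher, with a median of -1.14 that became -0.74 without stomach replicate 3. The 3 immunoproteasome subunits were all called higher (median 0.94), with 0 called without pylorus replicate 2.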
